A study of Mus musculus with 6 samples.

Results

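Cd226, Crtam, Tigit, Cd96 and Pvrig encode the lymphocyte receptors DNAM-1, CRTAM, TIGIT, CD96 and PVRIG, which bind nectins and nectin-like molecules on other cells. These 5 genes were taken by name from the 55291 gene symbols of the deposited count table, and all 5 were found. They were followed in RNA from 3 samples of type 1 innate lymphoid cells (ILC1s) and 3 samples of natural killer (NK) cells, sorted from tumours that grew for 14 days from MC38 cells, a C57BL/6 colon carcinoma line, placed under the skin of wild-type C57BL/6 mice. Both groups came from tumour-bearing wild-type mice without any further treatment named in the labels. The labels give neither the age of the mice nor the sort gate, and no label ties a sample to its own mouse. Spread among the 3 samples of a group may therefore be technical, and p-values cover that spread alone.

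The family works as a set of competing receptors. DNAM-1 activates NK cells and T cells when it meets CD155 (Pvr) or nectin-2 on a target cell. TIGIT binds CD155 with higher affinity than DNAM-1 does and carries inhibitory motifs in its cytoplasmic tail. CD96 also binds CD155 and in mice has mostly been described as inhibitory, although activating effects have been reported in other settings. PVRIG is an inhibitory receptor for nectin-2, and CRTAM is an activating receptor for the nectin-like molecule CADM1. NK cells are cytotoxic lymphocytes that circulate, and ILC1s are their mostly tissue-resident relatives.

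The libraries held 16931099 to 20224847 counts. The labelled cell types differed in their marker lists, which were chosen with earlier results of these data known and so are no independent check. All 8 ILC1 markers were higher in every ILC1 library than in every NK library, as were 12.5% of all genes tested. Of 10 NK markers 9 were lower without overlap, as were 13.3% of all genes. The exception, Itgam, is also a myeloid gene and was at 311 CPM in ILC1 replicate 3. Levels are given in CPM, the counts scaled to each library's effective size by trimmed mean of M values (TMM). Some libraries stood apart in genes of other cell types. The 9 macrophage markers summed to 10490 CPM in ILC1 replicate 3, while ILC1 replicates 1 and 2 had 303 and 223 CPM and NK libraries 101 to 219 CPM. The 8 fibroblast and matrix markers summed to 1115 and 1658 CPM in ILC1 replicates 1 and 2 and 932 CPM in NK replicate 3, but to 56.9 CPM in ILC1 replicate 3 and 5.89 and 13.1 CPM in NK replicates 1 and 2. T cells also use these receptors. The 11 T cell markers summed to 534 to 667 CPM in ILC1 libraries and 633 to 696 CPM in NK libraries. Trbc1, Trbc2 and Cd28 were the highest of them in every library. None of the rest exceeded 64.4 CPM in ILC1 libraries or 27.2 CPM in NK libraries. Of the 11 markers 9 had a positive fold change (56.0% of all genes did), with a median log2 fold change of 0.71 beside 0.081 over all genes. Cd3g, Cd4, Cd8a and Cd8b1 were higher in ILC1s without overlap (4 of 11, beside 12.5% of all genes). Trbc1, which held the largest share of the summed level, was lower without overlap (1 of 11, beside 13.3% of all genes). Cd8a reached 39.0 CPM in ILC1 replicate 3, while ILC1 replicates 1 and 2 had 7.56 and 4.62 CPM and NK libraries had 0.718 to 2.50 CPM. The part of these other cells in the receptor values was not tested. B cell markers summed to 1.22 to 5.15 CPM in ILC1 libraries and 1.69 to 2.21 CPM in NK libraries. Tumour epithelial markers summed to 106 to 381 CPM in ILC1 libraries and 16.7 to 33.2 CPM in NK libraries. Cdh1 made up most of these sums, with 97.4 to 377 CPM in ILC1 libraries and 12.1 to 23.2 CPM in NK libraries, while Epcam, Krt8, Krt18, Krt19 and Cldn4 were each at most 4.34 CPM in ILC1 libraries and 3.64 CPM in NK libraries. Endothelial markers summed to 168 to 204 CPM in ILC1 libraries and 183 to 257 CPM in NK libraries, nearly all of it Pecam1.

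Among the 5 receptor genes the widest differences between ILC1s and NK cells were in Cd226, Tigit and Crtam. ILC1s held 2.02 times the Cd226 mRNA of NK cells, 0.449 times the Tigit mRNA and 0.368 times the Crtam mRNA, so the 2 activating receptors differed in opposite directions. Cd96 and Pvrig averaged 0.899 and 0.817 times their NK level. None of the 5 passed edgeR's quasi-likelihood test at a Benjamini-Hochberg adjusted p under 0.05, a test that called 0.0829% of 14475 genes. At an unadjusted p under 0.05 these were 3 of the 5, Cd226, Tigit and Crtam, where 15.8% of all genes were. DESeq2 called Cd226 higher (it called 2.94% of genes higher) and Tigit and Crtam lower (4.03% of genes lower). The limma-voom test called none of the 5 (0.124% of genes).

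**Figure D1:**
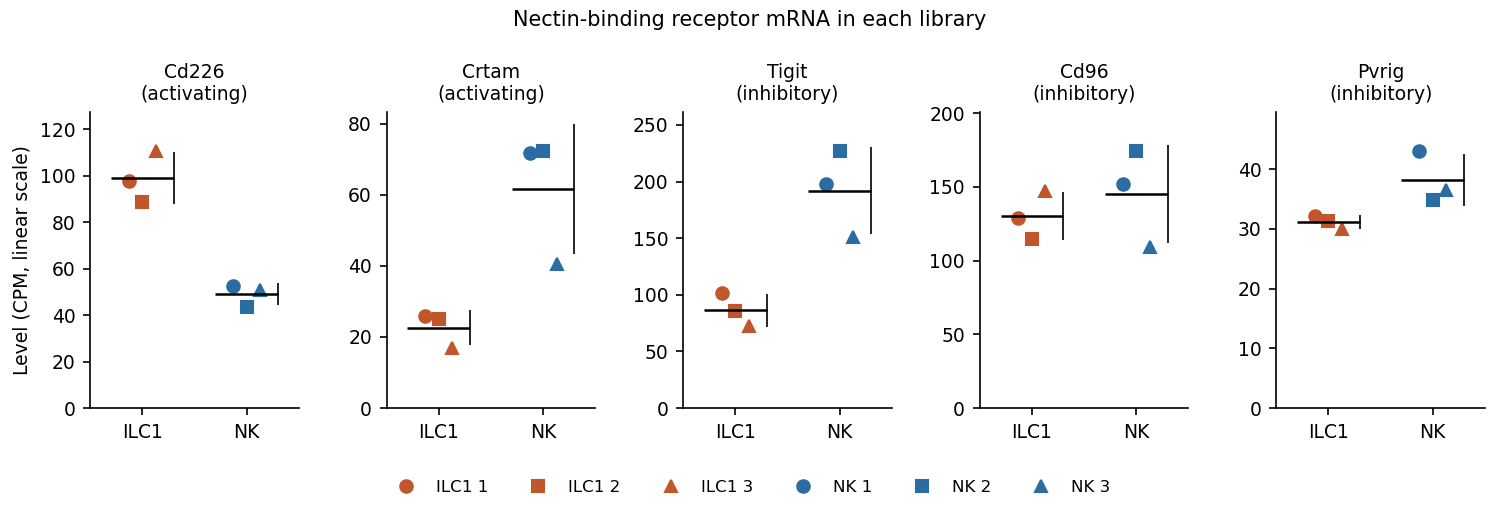
The level of each receptor gene in CPM (vertical axes, linear, each from 0) in the 3 ILC1 libraries (left, orange) and the 3 NK libraries (right, blue), with horizontal lines at the group means, vertical lines for ± 1 SD and a marker shape for each replicate number. Cd226 sits at 88.8 CPM or above in ILC1s and at 52.7 CPM or below in NK cells, Crtam and Tigit are ordered the other way without overlap, and the Cd96 ranges overlap.

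Cd226 encodes DNAM-1, the activating receptor for CD155 and nectin-2. It lies at chr18:89176967-89272229 on the forward strand of GRCm38 and has 10 annotated transcripts, which the gene counts do not separate. Its counts were 1761, 1825 and 1915 in ILC1 replicates 1 to 3 and 1056, 852 and 1060 in NK replicates 1 to 3. These equalled 97.9, 88.8 and 111 CPM in ILC1s, against 52.7, 43.7 and 50.9 CPM in NK cells. Every ILC1 library was above every NK library, as was the case for 12.5% of all genes tested. The means were 99.2 ± 11.1 CPM in ILC1s, against 49.1 ± 4.73 CPM in NK cells (SD, n = 3 each). The log2 fold change, ILC1 minus NK, was 1.01 ± 0.14 (SE, edgeR adjusted p = 0.0978, DESeq2 adjusted p = 9.97e-07). Of the 5 genes Cd226 had the smallest adjusted p in both tools.

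Crtam encodes the activating receptor for CADM1, known in mice for its part in cytotoxic lymphocyte responses. It lies at chr9:40969691-41004628 on the reverse strand and has 4 annotated transcripts. Its ILC1 counts were the lowest of the family. Counts were 465, 517 and 292 in ILC1 replicates 1 to 3 and 1441, 1411 and 844 in NK replicates 1 to 3. The levels were 25.8, 25.2 and 16.9 CPM in ILC1s, against 71.9, 72.4 and 40.5 CPM in NK cells. The groups did not overlap, with Crtam lower in ILC1s, as for 13.3% of genes. The lowest NK value was that of NK replicate 3, the NK library with matrix genes. The means were 22.6 ± 4.98 CPM in ILC1s, against 61.6 ± 18.3 CPM in NK cells (SD, n = 3 each). The log2 fold change was -1.44 ± 0.29 (SE, edgeR adjusted p = 0.138, DESeq2 adjusted p = 0.000925). Counting alone gives the lowest of these counts, 292, an exact 95% Poisson interval of 259.5 to 327.5, a coefficient of variation of 5.85%, against a spread between libraries of 22.0% in ILC1s and 29.7% in NK cells. Counting error was the smaller part of that spread.

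Tigit encodes the inhibitory receptor that competes with DNAM-1 for CD155. It lies at chr16:43648867-43664146 on the reverse strand, and GENCODE gives it 1 transcript. The counts were 1822, 1757 and 1245 in ILC1 replicates 1 to 3 and 3970, 4428 and 3144 in NK replicates 1 to 3. In CPM these were 101, 85.5 and 72.0 in ILC1s and 198, 227 and 151 in NK cells. Each ILC1 library was below each NK library, and NK replicate 3 was again the lowest of its group. The means were 86.3 ± 14.6 CPM in ILC1s, against 192 ± 38.5 CPM in NK cells (SD, n = 3 each), with a log2 fold change of -1.15 ± 0.21 (SE, edgeR adjusted p = 0.121, DESeq2 adjusted p = 7.42e-05). Tigit is an inhibitory receptor and Crtam an activating one, yet their profiles over the 6 libraries were the closest of the 10 pairs in the family. The root mean square difference of their log2 CPM, each centred on its own mean, was 0.207, and the pair farthest apart was Cd226 and Crtam with 1.29.

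Cd96 encodes CD96, also called TACTILE, a further receptor for CD155. It lies at chr16:46035657-46120251 on the reverse strand, 2.37 Mb from Tigit, with 1 annotated transcript. Its counts were 2325, 2359 and 2545 in ILC1 replicates 1 to 3 and 3044, 3402 and 2274 in NK replicates 1 to 3. The levels of 129, 115 and 147 CPM in ILC1s lay within the range of 152, 175 and 109 CPM in NK cells. The means were 130 ± 16.3 CPM in ILC1s, against 145 ± 33.2 CPM in NK cells (SD, n = 3 each). The log2 fold change of -0.15 ± 0.21 (SE, edgeR adjusted p = 0.740) was smaller than its error. Its sign turned to a positive 0.16 when library sets were a term in the fit and 0.0047 without NK replicate 2.

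Pvrig encodes PVRIG, the inhibitory receptor for nectin-2. It is a compact gene at chr5:138341961-138343557 on the forward strand with 1 annotated transcript. The counts were 580, 644 and 518 in ILC1 replicates 1 to 3 and 864, 680 and 760 in NK replicates 1 to 3, or 32.2, 31.3 and 30.0 CPM in ILC1s, against 43.1, 34.9 and 36.5 CPM in NK cells. The ILC1 libraries were below the NK libraries without overlap, by a small margin. The means were 31.2 ± 1.14 CPM in ILC1s, against 38.2 ± 4.36 CPM in NK cells (SD, n = 3 each), and the log2 fold change was -0.29 ± 0.14 (SE, edgeR adjusted p = 0.365, DESeq2 adjusted p = 0.392). Together 1 of the 5 genes was higher and 3 were lower without overlap, where 12.5% and 13.3% of all genes were. Fewer cells that use a gene and less of its RNA per cell cannot be told apart in these bulk samples.

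The stretches around the starts of Tigit and Cd96 are shown because these inhibitory receptor genes for the same ligand lie on the same chromosome and strand yet had different ILC1 to NK ratios. Each runs 5′ to 3′ on the reverse strand of chromosome 16, from 250 bases before the RefSeq start to 50 after it (RefSeq, GRCm38.p6), and capitals mark matches to the motifs searched.
Tigit, chr16:43664135-43664434: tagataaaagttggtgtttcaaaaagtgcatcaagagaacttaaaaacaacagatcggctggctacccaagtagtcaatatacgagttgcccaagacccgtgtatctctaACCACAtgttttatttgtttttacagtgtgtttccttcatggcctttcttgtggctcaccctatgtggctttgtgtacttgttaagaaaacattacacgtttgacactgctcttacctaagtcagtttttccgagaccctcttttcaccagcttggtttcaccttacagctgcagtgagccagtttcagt
Cd96, chr16:46120199-46120498: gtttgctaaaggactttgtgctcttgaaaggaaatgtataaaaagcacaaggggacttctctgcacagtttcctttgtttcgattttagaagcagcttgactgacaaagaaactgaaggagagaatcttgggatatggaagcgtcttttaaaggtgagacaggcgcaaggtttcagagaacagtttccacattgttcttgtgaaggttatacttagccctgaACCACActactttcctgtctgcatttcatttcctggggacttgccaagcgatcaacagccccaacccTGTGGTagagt
The motifs were a T-box core (GGTGTGA), a RUNX core (TGTGGT), an ETS core (AGGAAG) and an AP-1 site (TGANTCA), each on both strands, and no match overlapped another. Tigit held 1 RUNX match, which begins at base -140 from the start, and Cd96 held 2, at bases -28 and 40. The RUNX letters were present in 16.8% of the 32851 promoters of the same length. Letters of the T-box, ETS and AP-1 motifs, present in 3.98%, 35.4% and 7.81% of promoters, were not in these 2 windows. A match describes letters and is not a measured site.

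Levels of different genes can be set beside each other per kilobase of annotated exon. On that scale Tigit was the most abundant receptor mRNA in all 6 libraries, followed by Cd96 and then Pvrig. Tigit stood at 93.9 ± 15.9 CPM per kb in ILC1s and 209 ± 41.9 in NK cells (SD, n = 3 each). Cd96 followed with 59.7 ± 7.46 CPM per kb in ILC1s and 66.5 ± 15.2 in NK cells, and Pvrig with 28.9 ± 1.05 in ILC1s and 35.3 ± 4.03 in NK cells. The activating receptors were the lowest on this scale. Cd226 was at 20.3 ± 2.26 CPM per kb in ILC1s and 10.03 ± 0.968 in NK cells, and Crtam at 4.41 ± 0.970 in ILC1s and 12.0 ± 3.56 in NK cells. In ILC1s the ranges of neighbours in this order did not overlap. In NK cells those of Tigit, Cd96, Pvrig and the activating pair did not overlap either, but Crtam ranged from 7.89 to 14.1 and Cd226 from 8.94 to 10.8 CPM per kb, so their order was not resolved. In all ILC1 libraries Cd226 was above Crtam, and in NK replicates 1 and 2 it was below. The scale rests on exon lengths of 0.92 kb for Tigit, 2.18 kb for Cd96, 4.89 kb for Cd226, 5.13 kb for Crtam and 1.08 kb for Pvrig in GENCODE M21, which may not be the release used for counting. Without division by length the order changed. ILC1 means were then 130 CPM for Cd96, 99.2 for Cd226, 86.3 for Tigit, 31.2 for Pvrig and 22.6 for Crtam. NK means were 192 CPM for Tigit, 145 for Cd96, 61.6 for Crtam, 49.1 for Cd226 and 38.2 for Pvrig.

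Summed by role on this scale, the activating receptors were level between the cell types. Cd226 and Crtam together gave 25.1, 23.1 and 26.0 CPM per kb in ILC1 replicates 1 to 3 and 24.8, 23.1 and 18.3 CPM per kb in NK replicates 1 to 3. The inhibitory sum of Tigit, Cd96 and Pvrig was 199, 175 and 174 CPM per kb in ILC1s and 325, 359 and 248 CPM per kb in NK cells. The inhibitory sums did not overlap, whereas the activating sums did. Activating mRNA was thus 0.126, 0.132 and 0.150 of inhibitory mRNA in ILC1s, and 0.0763, 0.0641 and 0.0738 in NK cells. On the log2 scale the ratio was -2.89 ± 0.13 in ILC1s and -3.81 ± 0.13 in NK cells (SD, n = 3 each), a difference of 0.93 with no overlap. As a difference of mean log2 levels, where each gene weighs the same, it was 0.32. It is a score over chosen genes and was not tested. Inhibitory mRNA exceeded activating mRNA in each of the 6 libraries. The size of that excess depended on the exon lengths. Without division by length, the log2 ratios were -1.09, -1.02 and -0.97 in ILC1 replicates 1 to 3 and -1.66, -1.91 and -1.70 in NK replicates 1 to 3.

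The make-up of the family differed as well. Tigit made up 49.1, 47.1 and 39.3% of the summed receptor mRNA per kb in ILC1s and 61.6, 64.6 and 61.7% in NK cells. Cd226 made up 8.92, 9.19 and 11.4% in ILC1s and 3.08, 2.34 and 3.91% in NK cells. Cd96, with nearly the same level in both, made up 28.9 ± 4.22% in ILC1s and 19.9 ± 1.06% in NK cells (SD, n = 3 each). Pvrig made up 13.97 ± 0.686% in ILC1s and 10.9 ± 2.18% in NK cells. Crtam made up 2.13 ± 0.428% in ILC1s and 3.55 ± 0.534% in NK cells.

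**Figure D2:**
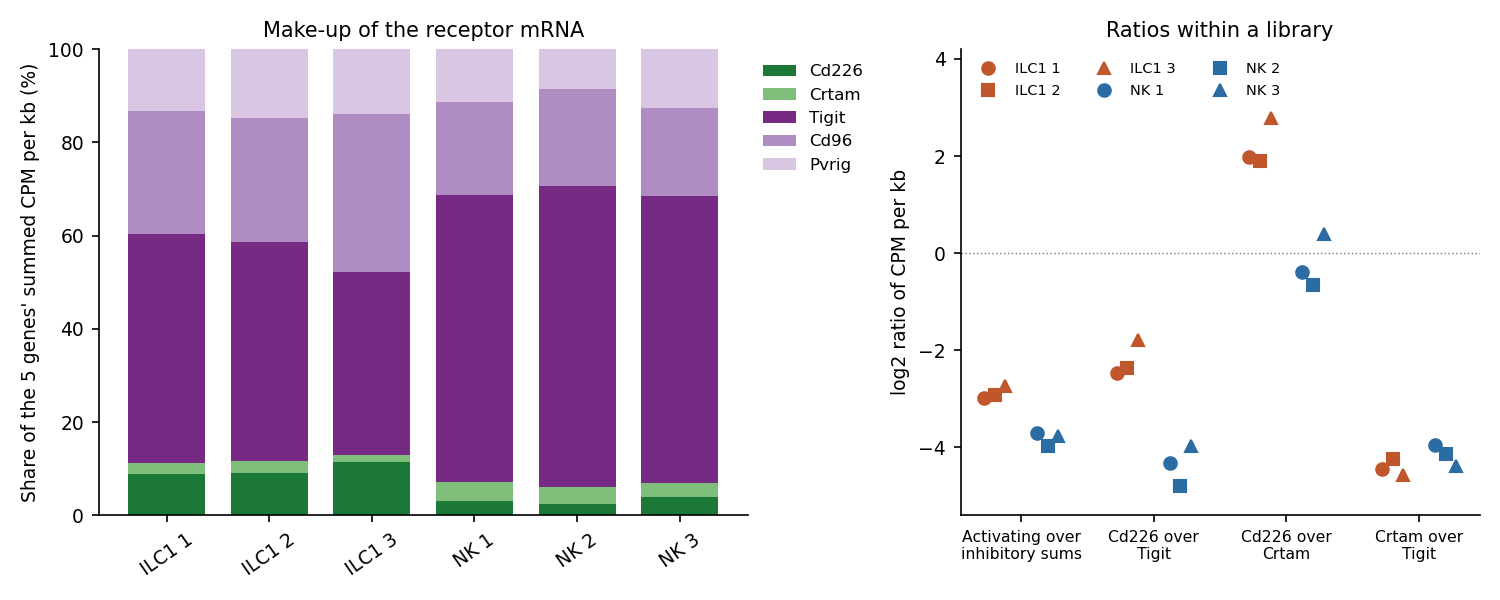
Left, the share of each receptor gene (in %) in the summed CPM per kb of the 5 genes, for each ILC1 library and then each NK library. Right, log2 ratios of CPM per kb within each library, ILC1 in orange on the left and NK in blue on the right of each pair. The group means differ by 2.16 for Cd226 over Tigit and by 2.43 for Cd226 over Crtam, while Crtam over Tigit overlaps.

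Ratios between single receptors within a library, which do not depend on the scaling between libraries, showed which pairs stood apart. The log2 ratio of Cd226 to Tigit, receptors that share CD155, was -2.46, -2.36 and -1.79 in ILC1 replicates 1 to 3 and -4.32, -4.79 and -3.98 in NK replicates 1 to 3. That of Cd226 to Crtam was 1.99, 1.89 and 2.78 in ILC1s and -0.38, -0.66 and 0.40 in NK cells. The group means differed by 2.16 for the first and 2.43 for the second, and neither ratio overlapped between the groups. For Crtam over Tigit the values were -4.45, -4.25 and -4.57 in ILC1s and -3.94, -4.13 and -4.38 in NK cells, which overlapped. The ratio of Cd226 to Cd96 hardly varied among ILC1 libraries, at -1.56 ± 0.021, and was -2.71 ± 0.448 in NK cells (SD, n = 3 each). It was higher in ILC1s without overlap, as was Cd226 over Pvrig, with a difference of group means of 1.299. Crtam, the other activating receptor, went the opposite way. Its ratios to Cd96 and Pvrig were lower in ILC1s without overlap, by -1.286 and -1.135 (ILC1 minus NK). Tigit over Cd96 and Tigit over Pvrig were also lower without overlap, by -1.013 and -0.862. Cd96 over Pvrig overlapped.

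The size of the differences depended on which libraries were compared. Among the 3 libraries with matrix genes, the mean of ILC1 replicates 1 and 2 over NK replicate 3 gave log2 ratios of 0.87 for Cd226, -0.69 for Tigit, -0.67 for Crtam, -0.20 for Pvrig and 0.16 for Cd96. Over all 6 libraries the fold changes of Cd226, Tigit and Crtam were 1.01, -1.15 and -1.44, so that of Cd226 moved least. A fit that added the library sets, so that the cell type effect rests on these 3 libraries and the lone NK library is assumed to vary like the others, gave -0.67 ± 0.15 for Crtam (SE, edgeR adjusted p = 0.254), -0.69 ± 0.17 for Tigit (adjusted p = 0.285) and 0.88 ± 0.18 for Cd226 (adjusted p = 0.206). The part of matrix-bearing cells in this was not tested. Without NK replicate 3, all 3 genes passed edgeR's test, with log2 fold changes of 1.05 for Cd226 (adjusted p = 0.0488), -1.29 for Tigit (adjusted p = 0.0426) and -1.66 for Crtam (adjusted p = 0.0391). In that fit 449 of 14973 genes passed, against 12 of 14475 with all libraries. Without ILC1 replicate 3, the library with macrophage genes, these fold changes were 0.92, -1.05 and -1.28.

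**Figure D3:**
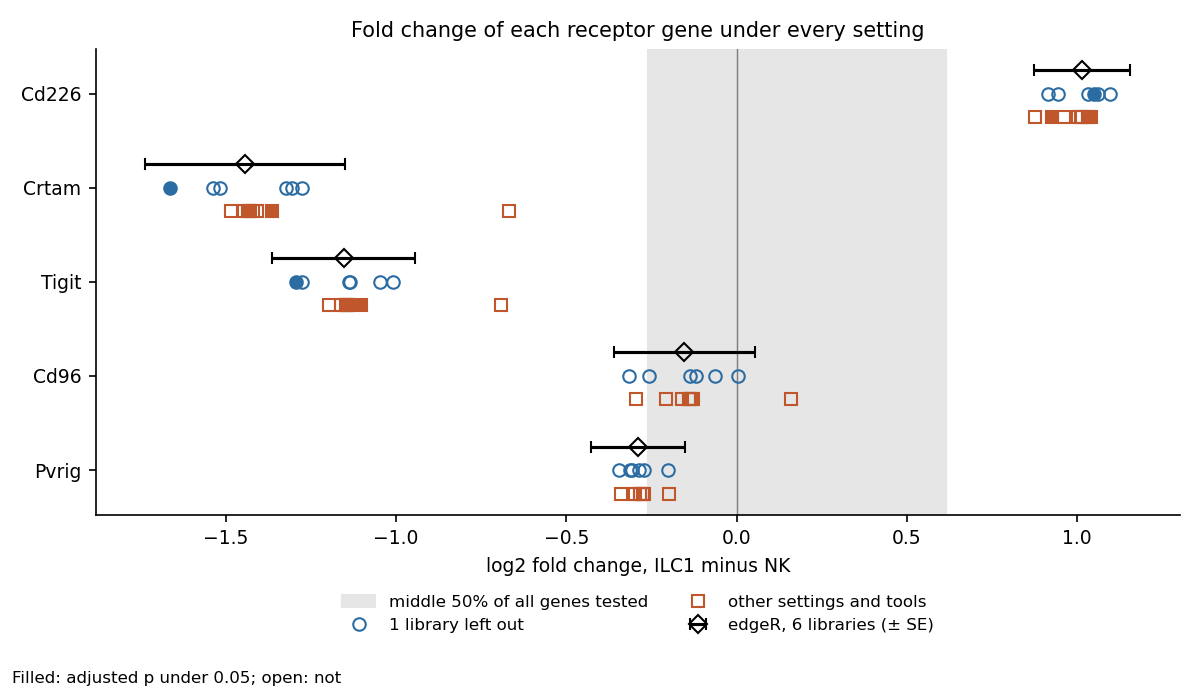
The log2 fold change (ILC1 minus NK) of each receptor gene with all 6 libraries (diamonds, ± SE), with 1 library left out (circles) and under the other settings and tools (squares), filled where the adjusted p was under 0.05. The grey band holds the middle 50% of all genes tested, from -0.26 to 0.61. Cd226 stays above the band, Crtam and Tigit below it, and Cd96 lies on both sides of 0.

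The ligands of these receptors were also measured in the sorted cells. Of 9 nectin and nectin-like genes, 6 had counts high enough to test, 5 of them with a positive fold change, as had 56.0% of all genes. None passed edgeR's test (2 were higher at an unadjusted p under 0.05, as were 6.95% of all genes) or limma-voom, and DESeq2 called 2 higher, Pvr and Nectin4 (2.94% of all genes were called higher). The median log2 fold change of the 6 was 1.70, beside 0.081 over all genes. Pvr, which encodes CD155, was the most abundant, at 43.7, 52.3 and 89.1 CPM in ILC1 replicates 1 to 3 and 10.3, 9.70 and 33.2 CPM in NK replicates 1 to 3. The groups did not overlap, and the log2 fold change was 1.80 ± 0.59 (SE, edgeR adjusted p = 0.268, DESeq2 adjusted p = 0.0213). Among the libraries with matrix genes the Pvr log2 ratio was 0.53, and the highest value was in the library with macrophage genes.

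Nectin1 and Nectin2, which encode nectin-1 and the PVRIG ligand nectin-2, followed the matrix genes among NK libraries. Nectin1 was at 5.56, 7.78 and 9.49 CPM in ILC1 replicates 1 to 3 and at 0.748, 0 and 4.70 CPM in NK replicates 1 to 3. Nectin2 was at 7.34, 8.95 and 4.40 CPM in ILC1s, against 0.249, 0.821 and 5.71 CPM in NK cells. In both genes NK replicate 3 was the high one of its group. Nectin3, which encodes nectin-3, was at 8.56, 11.6 and 0.347 CPM in ILC1s, against 0.848, 0 and 9.07 CPM in NK cells, so it was high in the 3 libraries with matrix genes. Nectin4 had 16, 18 and 125 counts in ILC1s and 1, 0 and 7 counts in NK cells, with the high value in the library with macrophage genes. Cadm1, the CRTAM ligand, was low throughout, at 0.167, 0 and 2.66 CPM in ILC1s, against 4.44, 1.28 and 0.288 CPM in NK cells. Cadm2, Cadm3 and Cadm4 were at most 1.02 CPM in ILC1 libraries and 0.720 CPM in NK libraries. A count of 0 allows up to 0.146 to 0.174 CPM in the ILC1 libraries and 0.144 to 0.154 CPM in the NK libraries, for counting error only.

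**Figure D4:**
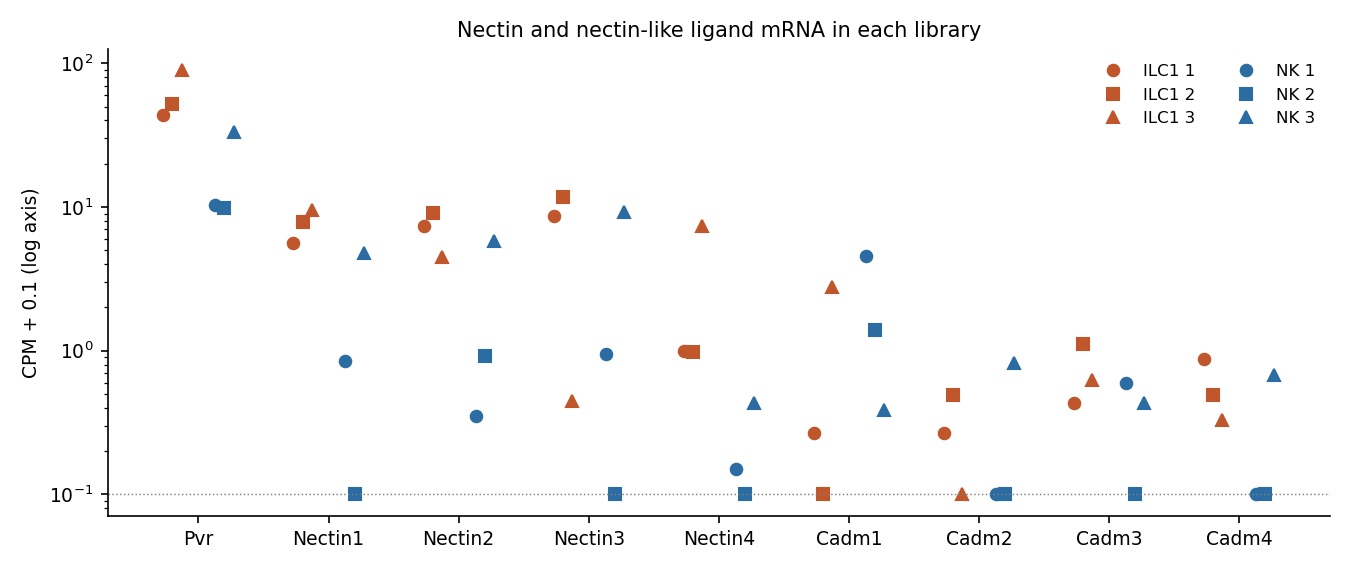
Levels of the 9 ligand genes as CPM + 0.1 on a log axis, for the 3 ILC1 libraries (orange, left of each pair) and the 3 NK libraries (blue, right), with a marker shape for each replicate number and a dotted line at 0 counts. Pvr is the most abundant in each library, and Nectin1, Nectin2 and Nectin3 are high in NK replicate 3 relative to the other NK libraries.

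Genes that act with or downstream of the receptors had more negative than positive fold changes. Of 18 signalling genes tested, 13 had a negative fold change, against 44.0% of all genes, with a median of -0.19 beside 0.081 over all genes. None passed edgeR's test (6 were lower at an unadjusted p under 0.05, as were 8.82% of all genes) or limma-voom, and DESeq2 called 4 lower, Fyn, Prkcq, Itgal and Pik3r1 (4.03% of all genes were called lower). Fyn, the kinase that phosphorylates the DNAM-1 tail, was at 198, 166 and 147 CPM in ILC1 replicates 1 to 3 and 478, 449 and 339 CPM in NK replicates 1 to 3, a log2 fold change of -1.31 ± 0.20 (SE, edgeR adjusted p = 0.103, DESeq2 adjusted p = 9.02e-08). Prkcq, which encodes protein kinase C theta, was at 88.7 ± 18.7 CPM in ILC1s, against 182 ± 28.3 CPM in NK cells, with a log2 fold change of -1.04. Itgal, a chain of the integrin LFA-1 that associates with DNAM-1 in human cells, was at 882 ± 92.7 CPM in ILC1s, against 1363 ± 242 CPM in NK cells, and Pik3r1, a regulatory subunit of phosphoinositide 3-kinase, at 225 ± 19.9 CPM in ILC1s, against 336 ± 42.3 CPM in NK cells (SD, n = 3 each). Of the 18 genes, 5 were lower in ILC1s without overlap (13.3% of all genes were) and 0 were higher (12.5% were). These 4, named for having the smallest p, were among the 5. Among the libraries with matrix genes the log2 ratios of Fyn, Prkcq, Itgal and Pik3r1 were -0.89, -0.62, -0.29 and -0.32. Over all libraries their log2 fold changes were -1.31, -1.04, -0.63 and -0.58. The phosphatase genes Ptpn6 and Ptpn11, whose products act on inhibitory tails, had log2 fold changes of 0.11 ± 0.37 and 0.036 ± 0.11, and Inpp5d, which encodes the phosphatase SHIP1 that human TIGIT recruits, had -0.69 ± 0.25 (SE).

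The genes whose profile over the 6 libraries came nearest to each receptor were sought among 8854 named genes with a mean of at least 10 CPM, by the root mean square difference of centred log2 CPM. Nearest to Tigit were the kinase gene Jak1 (0.0651), Rasa3 (0.080) and Il16 (0.0806). Jak1 was at 642, 555 and 523 CPM in ILC1 replicates 1 to 3 and 1357, 1477 and 1024 CPM in NK replicates 1 to 3. Nearest to Crtam were Gimap6 (0.0911), the costimulatory receptor gene Cd27 (0.092) and the kinase gene Pim2 (0.105), with Cd27 at 44.2, 39.9 and 25.2 CPM in ILC1s, against 120, 131 and 70.1 CPM in NK cells. Among the nearest to Cd226 were Arfgap3 (0.0778) and Adgrg5 (0.107). Nearest to Cd96 were Slc35a4 (0.0308), Lasp1 (0.0392) and Ddx54 (0.0465), and nearest to Pvrig were Zfp110 (0.0321), Tomm34 (0.0385) and Cul1 (0.0422). With 6 points and 8854 genes, small distances arise for many genes, and those of Cd96 and Pvrig, which vary little, are the smallest.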

How the data were processed

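RNA was sequenced from 3 ILC1 and 3 NK samples. The authors deposited raw counts per gene symbol. HISAT2 2.1.0, featureCounts 2.0.1 and GRCm38 are named, per the submitters' processing notes. Poly(A) RNA was captured and sequenced as single reads after PCR, per the labels' protocols, without molecular identifiers being mentioned. Which annotation release and strand setting were used is not stated.

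Columns were matched to samples by title. ILC1s were compared with NK cells by edgeR 4.0.16 (R 4.3.3). Counts were scaled by TMM, filterByExpr retained 14475 genes, and a robust quasi-likelihood model held only the cell type. P-values were adjusted by Benjamini-Hochberg over these genes, with a threshold of 0.05. The fits were tested on simulated data. With 3 against 3 libraries a two-sided permutation test of 1 gene cannot go below 0.1. Alternatives used DESeq2 1.42.0 and limma 3.58.1 on the same genes, other scaling and filters, a replicate block, library sets and single libraries left out. One library set joined ILC1 replicates 1 and 2 to NK replicate 3, another held the remaining NK libraries, and ILC1 replicate 3 stood alone. Ratios within the libraries with matrix genes had 0.1 CPM added. Centred log2 CPM used a prior count of 2. Gene positions and exon lengths came from GENCODE M21 on GRCm38. No pair of libraries agreed within counting noise.

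The receptor genes, lists and library sets were chosen with earlier results of these data known. The naming rule took the 5 receptors, ligands with a count, the 4 signalling genes with the smallest p, 3 nearest genes per receptor and marker genes with the highest levels. One gene that this rule named is not reported here. Cd3g, Cd4, Cd8a, Cd8b1, Trbc1, Itgam, Cdh1, Pecam1, Ptpn6, Ptpn11, Inpp5d and the low epithelial markers were named after their values were seen where they fall outside it.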

Additional observations from a re-analysis of the deposited data

How the results depend on the processing

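The signs of Cd226, Tigit, Crtam and Pvrig held in 15 of 15 alternatives, and that of Cd96 in 13, turning to 0.16 with library sets as a term and 0.0047 without NK replicate 2. With no low-count filter, Tigit (-1.14), Cd226 (1.04) and Crtam (-1.43) passed the threshold. They also passed with DESeq2 (-1.14, 1.03 and -1.44) and with limma-voom and library weights (-1.104, 0.93 and -1.37). With single libraries left out, log2 fold changes ran from -1.29 to -1.01 for Tigit, 0.92 to 1.096 for Cd226, -1.66 to -1.28 for Crtam and -0.32 to 0.0047 for Cd96. Tigit, Cd226 and Crtam passed without NK replicate 3 and in no other such fit. Over all alternatives the adjusted p ran from 7.42e-05 to 0.451 for Tigit, 9.97e-07 to 0.437 for Cd226, 0.000925 to 0.455 for Crtam, 0.197 to 0.995 for Cd96 and 0.130 to 0.862 for Pvrig, by edgeR, DESeq2 or limma. Genes past the threshold over the whole table numbered 12, and 138 with no low-count filter, 1010 with DESeq2, 2212 with limma-voom and library weights, 33 with library sets and 0 to 449 with single libraries left out. The causes of these changes were not tested.

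With a replicate block, 0 genes passed, with 1584 at an unadjusted p under 0.05, and Tigit, Cd226 and Crtam had log2 fold changes of -1.15, 1.01 and -1.42. Same-numbered libraries deviated from their group means with correlations of -0.363, -0.355 and -0.564. ILC1 replicates 1 and 2 instead correlated at 0.486 and 0.567 with NK replicate 3, the NK library with matrix genes. Over all genes tested, the deviations thus followed the libraries with matrix genes and cannot decide whether libraries pair by number. The block lowered the SE of Crtam from 0.29 to 0.16 and of Tigit from 0.21 to 0.17. It raised that of Cd226 from 0.142 to 0.146, of Cd96 from 0.21 to 0.26 and of Pvrig from 0.14 to 0.16. Whether same-numbered samples share a mouse or day is not given in the labels.

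The balance difference of 0.93 was 0.73 without division by length, 0.32 as a difference of mean log2 levels, where Crtam weighs as much as Cd226, and 1.16 without Cd96. It was higher in ILC1s without overlap in each of these. With single libraries left out it ran from 0.85 to 0.98. The difference was not computed without Tigit, which made up 39.3 to 64.6% of the summed receptor mRNA per kb.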
